A study of Mus musculus with 12 samples.

Results

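Genes that mark the sinusoidal endothelial cells of the liver were followed through 12 liver RNA-seq libraries: Stab1, Stab2, Lyve1, Fcgr2b, Clec4g, Kdr, Flt4, Pecam1, Gpr182 and Oit3. They were chosen by symbol, with earlier results of these data known, and all 10 had 1 entry each among the 25069 genes of the table. The libraries came from 12 female mice, 4 in each of 3 groups, and all of them carried wild-type Khdc3, which encodes part of a maternal protein complex of the oocyte. In the WTMM group both grandmothers, maternal and paternal, were Khdc3-null. In the WTPP group both grandfathers were Khdc3-null, and the ancestors of the WT group were wild type throughout. The labels give the tissue as liver and the cell type as hepatocyte, with no age, strain, treatment or batch. The comparisons ask whether the ancestors' genotype is followed by a difference in the livers of wild-type descendants.

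Sinusoidal endothelial cells line the liver's capillaries, where they form a perforated sheet without a continuous basement membrane, so that plasma reaches the hepatocytes directly. They clear waste proteins, glycosaminoglycans and immune complexes from blood through scavenger and Fc receptors. Their specialised state is known to be held by vascular endothelial growth factor (VEGF) from neighbouring cells and by transcription factors such as GATA4. Markers of this state and general vessel markers need not move together.

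The libraries held 25070718 to 35843972 reads assigned to genes, and 19272 to 20395 genes had at least 1 read. Values are normalized counts, which are reads divided by 1 factor per library; values of a group are listed in the order WTMM 6, 7, 8 and 9, WTPP 2, 3, 6 and 7, and WT 116, 117, 118 and 120. The members had 62 (Lyve1 in WT 117) to 5196 (Clec4g in WT 116) reads per library, and all 10 passed the filter, a mean of at least 10 normalized counts over the 12 libraries, in every group. WT 117 stood apart, being the highest or the lowest of the 12 libraries for 33.1% of the 14473 tested genes. Markers of cells other than hepatocytes were present in every library despite the hepatocyte label, with summed Kupffer cell markers of at least 13999.9 and summed stellate cell markers of at least 12627 normalized counts. If a batch followed the numbers of the WT libraries, it and the difference from WT cannot be told apart. In such bulk samples fewer cells of a type and less RNA per cell cannot be told apart.

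No member passed the test in any comparison, and the mean of their summed level was 0.886 of WT in WTMM and 0.896 of WT in WTPP, a ratio that was not tested. Their summed level was 14622, 13034, 13939.8 and 14051 normalized counts in WTMM, 13749, 14024, 14045 and 14462 in WTPP, and 15679.9, 15954, 16856 and 14339 in WT. Of the WT libraries 3 lay above every descendant library, and WT 120 lay among them. The means were 13912 ± 657 in WTMM, 14070.0 ± 294 in WTPP and 15707 ± 1041 in WT (SD, n = 4 each). Without Stab1, Fcgr2b and Pecam1, which leukocytes also express, the ratios were 0.898 and 0.899. The summed level of 12 Kupffer cell markers, liver macrophage genes, was lower by more, at 0.502 of WT in WTMM and 0.491 of WT in WTPP. Within WT it did not follow the members' sum, being lowest in WT 117, at 21493, and highest in WT 116, at 46749. Summed hepatocyte markers were at 0.868 of WT in WTMM and 1.02 in WTPP, and summed stellate markers at 0.889 and 1.08. A sum below WT by as much as that of the members was therefore seen for other cell types in WTMM, but not for these lists in WTPP. The part of Kupffer cell RNA in the members' values was not tested.

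Genes were tested with limma on log2(normalized count + 1), with p-values adjusted by the Benjamini-Hochberg method over all 14473 genes and a threshold of 0.05; a fold change is on this log2 scale unless given as a fold. In WTMM against WT 0 of 10 members passed, where 10.4% of all tested genes did, and 3 members (Kdr, Stab1 and Pecam1) had an unadjusted p under 0.05, where 27.3% of genes did. In WTPP against WT 0 of 10 passed against 10.2% of genes, and 3 members (Stab1, Stab2 and Oit3) had an unadjusted p under 0.05 against 26.6% of genes. Between WTMM and WTPP 0 of 10 passed against 4.17% of genes, and 1 member (Oit3) had an unadjusted p under 0.05 against 18.6% of genes. The groups compared overlapped for all 10 members in WTMM against WT, where 18.8% of genes did not overlap. In each of the other comparisons 1 member, Oit3, did not overlap, against 15.1% of genes in WTPP against WT and 13.2% in WTMM against WTPP. The voom test on recovered reads also called 0 members in each comparison. Log2 fold changes were below 0 for 9 of 10 members in WTMM against WT, with a median of -0.14, where 49.9% of all tested genes were below 0 with a median of 0.00. In WTPP against WT they were also below 0 for 9 of 10 members, with a median of -0.15, where 51.2% of genes were below 0. Log2 fold changes of WTMM against WTPP were below 0 for 6 of 10 members, with a median of -0.02, where 50.1% of genes were below 0. Both comparisons with WT share the same 4 WT libraries, so their likeness is no independent evidence. Without WT 117, 10 of 10 members in WTMM and 8 of 10 in WTPP lay below WT.

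The 95% intervals give a range of fold changes for each member taken singly, not for all members at once. They use 1 spread for the 3 groups, although the coefficient of variation was largest in WT for 10 of 10 members. In WTMM against WT they ran from 0.648-fold (Stab1) to 1.12-fold (Flt4) for the members other than Lyve1, whose upper bound was 1.97-fold. In WTPP against WT they ran from 0.657-fold (Stab1) to 1.27-fold (Oit3) without Lyve1, and the interval of Lyve1 was 0.551-fold to 1.38-fold. For WTMM against WTPP they ran from 0.771-fold (Pecam1) to 1.27-fold (Gpr182) without Lyve1, whose upper bound was 2.26-fold. The p-values measure the spread between these libraries.

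**Figure D1:**
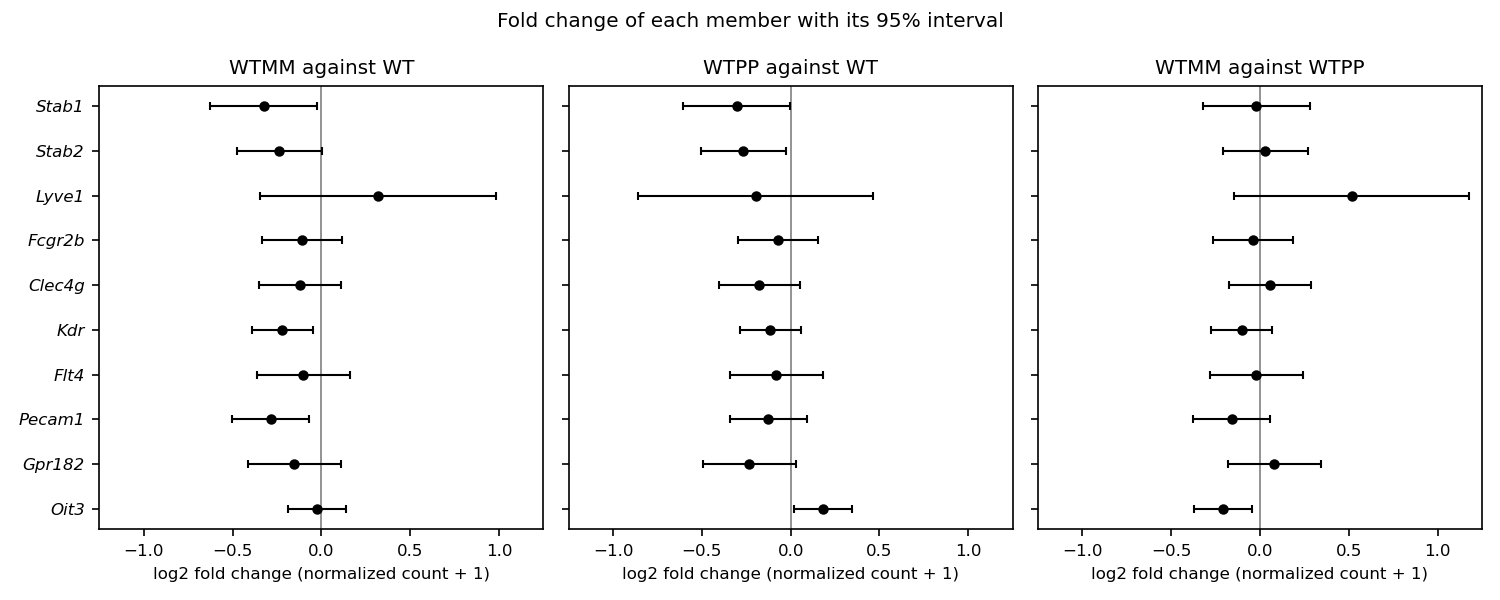
Log2 fold change (normalized count + 1) of each member on the horizontal axis, with points for the limma estimate and bars for its 95% interval, in 3 panels, with each descendant group set against WT on the left and in the middle and WTMM set against WTPP on the right. In both comparisons with WT 9 of 10 points lie left of 0, and Lyve1 has the widest interval in every panel.

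Levels between genes were compared as normalized counts per kilobase of exon. Clec4g was first, at 1326 ± 154 per kilobase (SD over 12 libraries), and stood above Fcgr2b, at 395 ± 39.4, in 12 of 12 libraries. Oit3 followed at 359.8 ± 30.0, Gpr182 at 289 ± 42.9 and Stab2 at 214 ± 30.6. Kdr was next at 203 ± 18.5 per kilobase, and Stab2 stood above it in only 8 of 12 libraries, so this pair did not differ beyond its spread. Stab1 had 137 ± 28.4 per kilobase, Flt4 114 ± 14.1, Pecam1 106 ± 13.0 and Lyve1 47.2 ± 13.9. Flt4 stood above Pecam1 in 9 of 12 libraries and Fcgr2b above Oit3 in 10, while Stab1 stood above Flt4 and Pecam1 above Lyve1 in 12 of 12. In WTPP the means of Oit3 (392.5 ± 15.9) and Kdr (201.8 ± 6.4) ranked above those of Fcgr2b (391.1 ± 22.2) and Stab2 (198.9 ± 16.8), in that order. These differences from the whole lay within the spread (SD, n = 4).

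Among the scavenger receptors, Stab1 and Stab2 had log2 fold changes below 0 in both comparisons with WT and did not pass the test. Stab1 (ENSMUSG00000042286.13, chromosome 14, 31139013 to 31168641, minus strand, GRCm38) and its relative Stab2 (ENSMUSG00000035459.17, chromosome 10, 86841198 to 87008025, minus strand) encode stabilins, large receptors that take up modified proteins, and Stab2 also takes up hyaluronan. The 250 bases before the RefSeq start (RefSeq, GRCm38.p6, minus strand) are shown for Stab1, at chr14:31168642-31168891, since it had the largest negative fold change of the members in both comparisons with WT, and for Clec4g, at chr8:3720652-3720901, since it had the highest level. Capitals mark the letters CAGGAA, a core bound by ETS factors, read on either strand (TTCCTG on the other), and ACAATG, a core bound by SOX factors.
Stab1: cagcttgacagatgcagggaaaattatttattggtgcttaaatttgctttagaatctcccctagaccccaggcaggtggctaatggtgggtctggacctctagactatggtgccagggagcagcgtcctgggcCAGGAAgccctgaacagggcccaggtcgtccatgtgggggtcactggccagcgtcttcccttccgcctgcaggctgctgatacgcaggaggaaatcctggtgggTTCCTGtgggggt
Clec4g: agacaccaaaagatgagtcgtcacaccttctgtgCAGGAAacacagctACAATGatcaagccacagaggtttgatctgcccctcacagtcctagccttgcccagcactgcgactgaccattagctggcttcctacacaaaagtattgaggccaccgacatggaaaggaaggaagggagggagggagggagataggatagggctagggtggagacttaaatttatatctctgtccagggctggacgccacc
The Stab1 window holds CAGGAA in both orientations, 117 to 112 and 13 to 8 bases before the start, with the match nearer the start on the opposite strand. In the Clec4g window CAGGAA lies 216 to 211 bases and ACAATG 202 to 197 bases before the start, both on the gene's strand and without overlap. Windows were matched for 6 members, Kdr, Stab1, Stab2, Clec4g, Fcgr2b and Flt4, of which 3 (Stab1, Stab2 and Clec4g) held CAGGAA, where 25.7% of 32851 windows of the same length did. ACAATG was held by 1 of 6 (Clec4g) against 10.7% of windows, and AGATAA, a core bound by GATA factors, by 0 of 6 against 9.99%. Such matches describe letters, and a window without them says only that they are not there. The other members are Lyve1, Oit3, Pecam1 and Gpr182.

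Stab1 had 1242, 1238, 1277 and 1388 normalized counts in WTMM, 1175, 1239, 1359 and 1457 in WTPP, and 1416, 2264, 1597 and 1309.8 in WT. WT 117 lay far above all other libraries, and WT 120 lay within the range of both descendant groups. The log2 fold change was -0.32 ± 0.14 SE in WTMM against WT (limma adjusted p = 0.15) and -0.30 ± 0.14 SE in WTPP against WT (limma adjusted p = 0.181). Without WT 117 these values were -0.16 and -0.14. Nt5dc2, on the opposite strand, overlaps exons of Stab1 and had a mean level 12.5% that of Stab1, and whether the counting used strand is not given in the sources used here.

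Stab2 had 1895, 1689.6, 1921 and 1615 normalized counts in WTMM, 1864, 1768, 1808 and 1529 in WTPP, and 1866, 2469, 2312 and 1796 in WT. WT 117 and WT 118 lay above all other libraries, and WT 116 and WT 120 lay within the range of WTMM. The log2 fold change was -0.24 ± 0.11 SE in WTMM against WT (limma adjusted p = 0.188) and -0.27 ± 0.11 SE in WTPP against WT (limma adjusted p = 0.143). Without WT 117 the values of Stab2 were -0.16 and -0.19. The groups WTMM and WTPP differed by 0.03 on the log2 scale, with an interval of 0.866-fold to 1.21-fold.

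Lyve1, a hyaluronan receptor of sinusoidal and lymphatic endothelium (ENSMUSG00000030787.4, chromosome 7, 110850607 to 110863239), was the most variable member. It had 157, 128, 175 and 182 normalized counts in WTMM, 74.3, 89.4, 143 and 159 in WTPP, and 167, 62.6, 150.4 and 166 in WT. The 3 libraries WTPP 2, WTPP 3 and WT 117, had 62.6 to 89.4 normalized counts while the other 9 had 128 to 182. Its log2 fold change was 0.32 ± 0.31 SE in WTMM against WT (limma adjusted p = 0.539), and -0.02 without WT 117. Against WTPP, that of WTMM was 0.52 ± 0.31 SE (limma adjusted p = 0.408), with a 95% interval of 0.904-fold to 2.26-fold.

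Fcgr2b and Clec4g did not pass the test in any comparison. Fcgr2b, the inhibitory Fc receptor that clears small immune complexes in these cells and is also made by leukocytes (ENSMUSG00000026656.15, chromosome 1, 170958617 to 170976547), had 2462, 2008, 2188 and 2167 normalized counts in WTMM, 2346, 2109.8, 2210.2 and 2392 in WTPP, and 2473, 1898, 2627 and 2581 in WT. All 3 groups overlapped, and WT held both the lowest and the highest library. Clec4g, a C-type lectin of sinusoidal endothelium (ENSMUSG00000074491.9, chromosome 8, 3707064 to 3720651), had 3419.6, 2957, 2914 and 3560.4 normalized counts in WTMM, 3046, 3262, 2844 and 3163 in WTPP, and 4046, 2963, 3822 and 3179 in WT. WT 116 and WT 118 were its highest libraries, and the other WT libraries lay within the range of WTMM. The intervals of Clec4g were 0.785-fold to 1.08-fold in WTMM against WT and 0.755-fold to 1.04-fold in WTPP against WT.

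Of the growth factor receptors, Kdr and Flt4 did not pass the test in any comparison. Kdr, the main VEGF-A receptor of endothelium (ENSMUSG00000062960.10, chromosome 5, 75932827 to 75978458), had 1843, 1663, 1709 and 1576 normalized counts in WTMM, 1745, 1857, 1874 and 1813 in WTPP, and 1838, 1965, 2241 and 1875 in WT. All WTMM libraries but WTMM 6 lay below every WT library, and WTPP overlapped both groups. For Kdr the log2 fold change was -0.22 ± 0.08 SE in WTMM against WT (limma adjusted p = 0.0936), and -0.12 ± 0.08 SE in WTPP against WT (limma adjusted p = 0.381). Flt4, the receptor of VEGF-C (ENSMUSG00000020357.3, chromosome 11, 49609263 to 49652739, plus strand), had 947, 847, 911 and 936 normalized counts in WTMM, 811, 912, 959 and 1028 in WTPP, and 919.6, 1200.4, 1066 and 772 in WT. WT held both its highest and its lowest library, and the descendant groups lay between them. Its intervals were 0.777-fold to 1.12-fold in WTMM against WT and 0.789-fold to 1.13-fold in WTPP against WT. Its log2 fold changes were -0.10 in WTMM against WT and -0.08 in WTPP against WT, and -0.0028 and 0.0193 without WT 117.

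Pecam1, a junction protein of endothelium that platelets and leukocytes also carry (ENSMUSG00000020717.19, chromosome 11, 106654217 to 106750628), had the lowest adjusted p of the members in WTMM against WT. It had 578, 554, 689 and 556 normalized counts in WTMM, 702, 669.9, 634 and 637 in WTPP, and 840.2, 674, 738 and 645 in WT. WTMM 8 lay among the WT libraries and the other WTMM libraries lay below them all. For Pecam1 the log2 fold change was -0.28 ± 0.10 SE in WTMM against WT (limma adjusted p = 0.0864). Without WTMM 8 it was -0.36 (limma adjusted p = 0.0484), past the threshold, which was the only setting tried that called a member. In WTPP against WT it was -0.13 ± 0.10 SE (limma adjusted p = 0.457).

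Gpr182, a receptor that removes chemokines in mouse sinusoidal endothelium (ENSMUSG00000058396.7, chromosome 10, 127747276 to 127751732), had 1077, 1043, 1219 and 1123 normalized counts in WTMM, 958, 1001, 1102 and 1163 in WTPP, and 1141, 1596, 1276 and 1011 in WT. WT 117 was highest by far and WT 120 was lower than all WTMM libraries. For Gpr182 the log2 fold change was -0.15 ± 0.12 SE in WTMM against WT (limma adjusted p = 0.449) and -0.23 ± 0.12 SE in WTPP against WT (limma adjusted p = 0.242). Without WT 117 these values were -0.03 and -0.11. Zbtb39, on the opposite strand, overlaps exons of Gpr182 and had a mean level 35.5% that of Gpr182, so part of its count is uncertain.

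Oit3, a secreted protein with a zona pellucida domain that marks sinusoidal endothelium in mouse liver (ENSMUSG00000009654.4, chromosome 10, 59422958 to 59441778), did not pass the test in any comparison. It had 1002, 906, 937 and 948 normalized counts in WTMM, 1028, 1117, 1112 and 1121 in WTPP, and 973, 863, 1026 and 1003 in WT. All 4 WTPP libraries lay above all WTMM and all WT libraries, though WTPP 2 exceeded the highest WT library, WT 118, by 1.83 normalized counts. As many as 7.33% of tested genes did not overlap with WTPP higher than WT, and 6.23% did not overlap with WTMM lower than WTPP, so 1 of 10 members is near the share of all genes. The log2 fold change was 0.18 ± 0.08 SE in WTPP against WT (limma adjusted p = 0.146), and -0.21 ± 0.08 SE in WTMM against WTPP (limma adjusted p = 0.158). In WTMM against WT it was -0.02 ± 0.08 SE, with an interval of 0.877-fold to 1.10-fold.

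**Figure D2:**
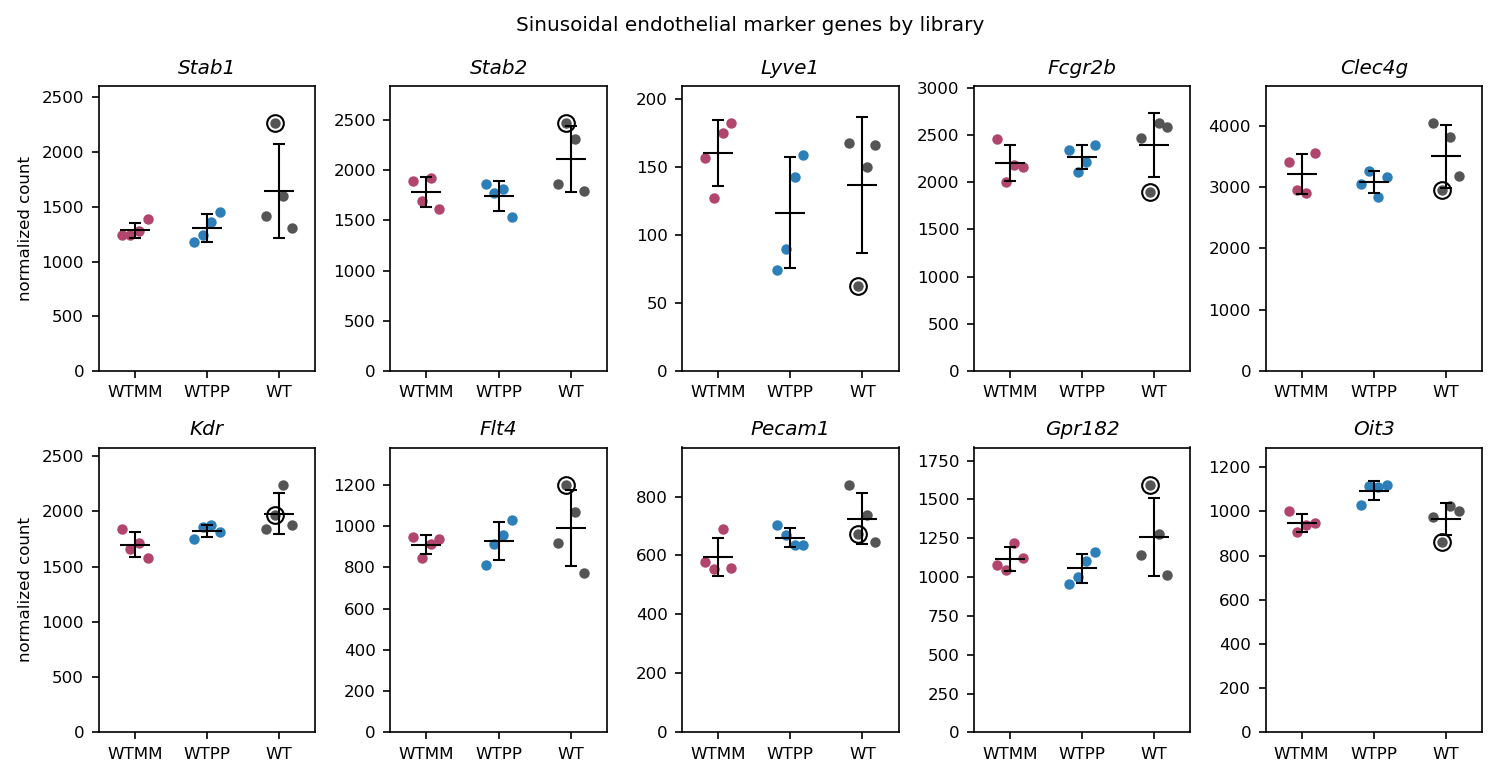
Normalized counts of the 10 members, 1 panel per gene with its own axis from 0, for the 4 libraries each of WTMM, WTPP and WT (points), with the group mean and SD (black bars) and WT 117 circled. The groups overlap in every panel except WTPP with the others in the Oit3 panel, and WT has the largest SD relative to its mean in all 10.

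The members did not vary as 1 block across libraries. The coefficient of variation was largest in WT for 10 of 10 members, where this held for 43.6% of all tested genes, and for 7 of 10 against 26.7% without WT 117. WT 117 was the highest of the 12 libraries for 4 members (Stab1, Stab2, Flt4 and Gpr182) and the lowest for 3 (Lyve1, Fcgr2b and Oit3). Across the 12 libraries, which share 1 normalization, Stab1 and Gpr182 had a Pearson r of 0.93, Flt4 and Gpr182 one of 0.88 and Stab1 and Flt4 one of 0.84. With group means removed and without WT 117 these were 0.87, 0.88 and 0.89, so the likeness of this trio did not rest on WT 117. Fcgr2b and Oit3 had an r of 0.80 with group means removed, and 0.47 when WT 117 was left out as well, against 0.44 over the 12 libraries as they stand. Lyve1 and Oit3 had an r of 0.79 with group means removed, and 0.51 when WT 117 was left out as well, while their r over the 12 libraries as they stand was 0.14. Stab1 and Fcgr2b had an r of -0.66 with group means removed, and 0.14 when WT 117 was left out as well. These values describe the libraries and carry no test.

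**Figure D3:**
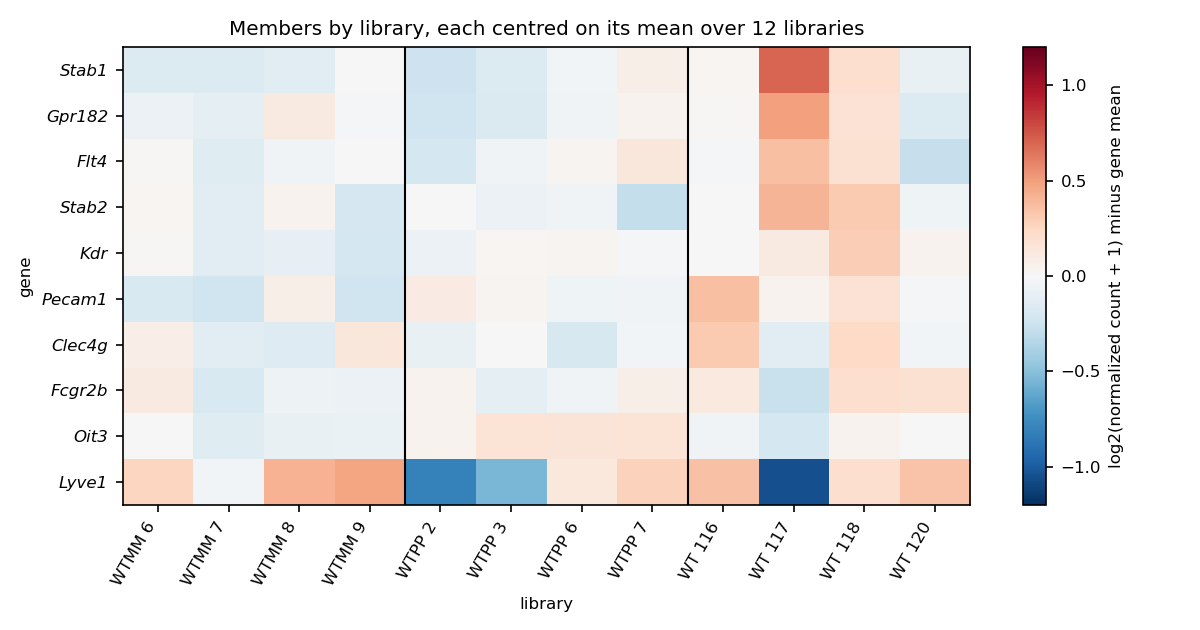
Log2(normalized count + 1) of each member minus its mean over the 12 libraries, with genes in rows and libraries in columns (4 WTMM, 4 WTPP and 4 WT, black lines between groups). WT 117 is red for Stab1, Gpr182, Flt4 and Stab2 and blue for Lyve1, Oit3, Fcgr2b and Clec4g.

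The genes outside the members most like their mean profile, among 11680 with a mean of at least 50 normalized counts and by Pearson r over 12 libraries, were C1qtnf1 (0.91), Ttyh3 (0.91), Chst2 (0.90), Abi3 (0.89), Kcna2 (0.87), Anxa5 (0.86), Isyna1 (0.86) and Csf2ra (0.85). With group means removed the r of Chst2 was 0.93 and that of C1qtnf1 0.89, and that of Csf2ra 0.74. Of the endothelial, Kupffer and stellate list genes compared, the endothelial junction gene Cdh5 ranked highest, at 25 of 11680. Its r was 0.82, and 0.74 with group means removed. The next of these list genes were the Kupffer cell markers Cd5l (rank 49, r of 0.79) and Marco (rank 62, r of 0.78). With group means removed their r was 0.59 (rank 365) and 0.56 (rank 461). Endothelial list genes ran from Cdh5 down to Meis2, with an r of -0.59, so they did not follow the members as a class.

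Of 10 further sinusoidal genes 0 passed in WTMM against WT, 9 were below 0 and the median was -0.20, and in WTPP against WT 0 passed, 8 were below 0 and the median was -0.20. In WTMM against WTPP 0 passed and the median was -0.08. At an unadjusted p under 0.05 there were 4, 3 and 0 of them in these comparisons, where 27.3%, 26.6% and 18.6% of all tested genes were. Of all tested genes 10.4%, 10.2% and 4.17% passed, and 49.9% and 51.2% were below 0 in the comparisons with WT. Mrc1, the mannose receptor that clears glycoproteins and is also made by macrophages, averaged 1847 ± 32.7 normalized counts in WTMM, 1981 ± 101 in WTPP and 2396 ± 455 in WT (SD, n = 4 each; log2 fold change -0.35 ± 0.12 SE in WTMM against WT, limma adjusted p = 0.0704). Dnase1l3, a secreted DNase, averaged 3361 ± 163 in WTMM, 3531 ± 254 in WTPP and 4142 ± 659 in WT, with a log2 fold change of -0.29 ± 0.10 SE in WTMM against WT (limma adjusted p = 0.0849).

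Among general endothelial genes Cdh5 was lower than in WT in both descendant groups. Cdh5, which encodes the adherens junction protein VE-cadherin (chromosome 8, 104101625 to 104144511), had 852, 819, 987 and 865 normalized counts in WTMM, 902, 881, 1029 and 977 in WTPP, and 1406, 1119, 1413 and 1202 in WT. All 8 descendant libraries lay below all 4 WT libraries, as for 9.55% of tested genes with WTMM and 7.81% with WTPP. It fell by 0.54 ± 0.10 SE on the log2 scale in WTMM against WT (limma adjusted p = 0.00532) and by 0.43 ± 0.10 SE in WTPP against WT (limma adjusted p = 0.0142). Eng, a co-receptor for TGF-beta ligands, averaged 1792 ± 109 in WTMM, 1984 ± 109 in WTPP and 2272 ± 313 in WT, and fell by 0.33 ± 0.10 SE in WTMM against WT (limma adjusted p = 0.0413). The call of Eng was lost under 9 of 21 other settings, among them without any 1 WTMM library, without WT 117 and without WT 118, with adjusted p of at most 0.112. In all, 2 of 12 genes of this list fell in WTMM against WT (median -0.11), where 5.94% of all tested genes fell. In WTPP against WT 1 of 12 fell (median -0.05), against 5.53% of genes. In WTMM against WTPP 0 of 12 passed, and 2 had an unadjusted p under 0.05, where 18.6% of genes did.

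The VEGF and angiopoietin ligands did not move as a group. Vegfa, the ligand of Kdr, had 4479, 4936, 4002 and 4866 normalized counts in WTMM, 3375, 3628, 5197 and 5587 in WTPP, and 2905, 3374, 3585 and 3805 in WT. All WTMM libraries lay above all WT libraries, as for 9.29% of tested genes, while WTPP fell into a low and a high pair. For Vegfa the log2 fold change was 0.42 ± 0.15 SE in WTMM against WT (limma adjusted p = 0.0907) and 0.35 ± 0.15 SE in WTPP against WT (limma adjusted p = 0.156). Angpt1, the activating ligand of the receptor Tek, had 30.2, 5.28, 12.5 and 5.91 normalized counts in WTMM, 25.8, 26.5, 43.2 and 22.8 in WTPP, and 39.7, 51.5, 56.4 and 78.0 in WT. Every WTMM library lay below every WT library, as for 9.55% of tested genes. Angpt1 fell by 2.26 ± 0.43 SE on the log2 scale in WTMM against WT (limma adjusted p = 0.0068), the only 1 of 6 tested ligands past the threshold in any comparison. Of all tested genes 5.94% fell in WTMM against WT. Of 6 receptors in the list, 0 passed in any comparison. In WTMM against WT 2 receptors had an unadjusted p under 0.05, where 27.3% of all tested genes did, and 0 did in the other comparisons. The co-receptor Nrp1 averaged 2563 ± 415 in WTMM, 2101 ± 437 in WTPP and 1938 ± 169 in WT (log2 fold change 0.39 ± 0.15 SE in WTMM against WT, limma adjusted p = 0.101).

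Of 13 endothelial transcription factors 1 fell in each comparison with WT, near the 5.94% (WTMM) and 5.53% (WTPP) of all tested genes that fell. Gata4, which in mouse is needed for sinusoidal endothelial identity and is also made by stellate cells (chromosome 14, 63198922 to 63271692), averaged 539.7 ± 19.6 normalized counts in WTMM, 650.0 ± 64.7 in WTPP and 659 ± 30.2 in WT. It fell by 0.29 ± 0.08 SE in WTMM against WT (limma adjusted p = 0.0449), a call lost under 11 of 21 other settings, including without any 1 WTMM or WT library, with adjusted p of at most 0.115. Tfec, a factor of sinusoidal endothelium and macrophages (chromosome 6, 16833373 to 16898441), had 75.3, 67.3, 116 and 71.3 normalized counts in WTPP against 271, 89.9, 159.7 and 169 in WT. In WTMM the values of Tfec were as low, at 85.1, 87.1, 93.3 and 90.7, though it did not pass the test there. It fell by 0.98 ± 0.27 SE in WTPP against WT (limma adjusted p = 0.0334), a call lost under 8 of 21 other settings, among them without WTPP 2, 3 or 7 and without WT 116, 118 or 120, with adjusted p of at most 0.0906. Between WTMM and WTPP 0 of 13 factors passed, and 2 had an unadjusted p under 0.05, where 18.6% of all tested genes did.

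Some genes had the smallest p of their list without passing the test, and their values are given here. Between WTMM and WTPP these included Mmrn2, an endothelial matrix protein (-0.39 ± 0.11 SE on the log2 scale, limma adjusted p = 0.062), and Robo4, a guidance receptor of vessels (-0.32 ± 0.13 SE, limma adjusted p = 0.184). Prox1, the lymphatic master regulator that hepatocytes also express, averaged 3480.0 normalized counts in WTMM, 2529 in WTPP and 3109.6 in WT, and its WTMM and WTPP libraries did not overlap, as for 6.94% of genes in that direction (0.46 ± 0.13 SE in WTMM against WTPP, limma adjusted p = 0.0719). Bmp6, which endothelium secretes to control hepcidin, averaged 198 normalized counts in WTMM, 266 in WTPP and 211 in WT, with a log2 fold change of -0.44 ± 0.17 SE in WTMM against WTPP (limma adjusted p = 0.175). Dll4, a Notch ligand, had a log2 fold change of -0.41 ± 0.15 SE in WTMM against WT (limma adjusted p = 0.104), and Ptprb, a phosphatase that acts on Tek, one of -0.28 ± 0.10 SE (limma adjusted p = 0.102).

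No gene passed in any comparison among 9 tested large-vessel genes, 12 tested angiocrine and flow genes or 2 tested lymphatic genes. The medians in WTMM against WT were -0.17, -0.06 and -0.59, and in WTPP against WT they were 0.03, 0.14 and -0.31. The 2 lymphatic genes went opposite ways in WTMM against WT, at -1.34 and 0.17, so their median there describes neither. At an unadjusted p under 0.05 there were 3, 1 and 1 genes in WTMM against WT, 0, 0 and 1 in WTPP against WT, and 3, 1 and 2 in WTMM against WTPP. Of all tested genes 10.4%, 10.2% and 4.17% passed in these comparisons, and 27.3%, 26.6% and 18.6% had such an unadjusted p. Of 11 stellate cell genes 1 fell in WTMM against WT, where 5.94% of all tested genes fell. This was the filament gene Des, at 91.3 ± 11.9 normalized counts in WTMM, 118 ± 21.4 in WTPP and 159.7 ± 27.5 in WT (SD, n = 4 each). Its log2 fold change was -0.79 ± 0.17 SE in WTMM against WT (limma adjusted p = 0.0117). No stellate gene passed in the other comparisons, with 1 in WTPP against WT and 3 in WTMM against WTPP at an unadjusted p under 0.05.

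Markers of leukocytes were lower in both descendant groups than in WT. The summed level of 12 Kupffer cell markers was 13999.9 to 18469 normalized counts in WTMM, 14702 to 19063 in WTPP and 21493 to 46749 in WT, with no marker at 0 in all libraries, and WT 117 was the lowest of WT. Of the 12 Kupffer markers 11 fell in WTMM against WT (median -0.93) and 12 fell in WTPP against WT (median -0.95), where 5.94% and 5.53% of all tested genes fell, while 0 passed in WTMM against WTPP, where 0 had an unadjusted p under 0.05. The most abundant, Clec4f, a Kupffer cell lectin, averaged 4350.2 ± 496 in WTMM, 4012 ± 486 in WTPP and 8061 ± 2341 in WT. The summed level of 9 T and NK cell markers was 158 to 193 in WTMM, 182 to 216 in WTPP and 300.1 to 719 in WT, and that of 6 B cell markers 235 to 354 in WTMM, 306 to 533 in WTPP and 540.6 to 1179 in WT. Of 8 tested T and NK markers 7 fell in WTMM and 4 in WTPP against WT. For 6 B cell markers these numbers were 4 and 3, where 5.94% and 5.53% of all tested genes fell. Of 8 hepatocyte markers 1 rose and 1 fell in WTMM against WT, 1 fell in WTPP against WT and 1 rose in WTMM against WTPP. Among all 14473 tested genes, 643 rose and 859 fell in WTMM against WT. In WTPP against WT 678 of these genes rose and 801 fell, and in WTMM against WTPP 331 rose and 272 fell. Of 2 tested platelet markers 0 passed in any comparison, and 0 had an unadjusted p under 0.05. Of 2 tested neutrophil markers 2 fell in WTMM against WT and 0 passed elsewhere. In WTPP against WT 2 had an unadjusted p under 0.05, where 26.6% of all tested genes did. Of 4 tested bile duct markers 1 fell in WTMM against WT, 1 rose in WTPP against WT and 1 fell in WTMM against WTPP, and 6 of 8 pancreatic acinar markers fell in each comparison with WT. The sum of the members divided by the sum of the Kupffer markers was 0.842 ± 0.071 in WTMM, 0.872 ± 0.093 in WTPP and 0.512 ± 0.172 in WT (SD, n = 4 each). The part of leukocyte RNA in the values of Stab1, Fcgr2b, Pecam1, Mrc1, Cdh5, Eng and Tfec was not tested.

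**Figure D4:**
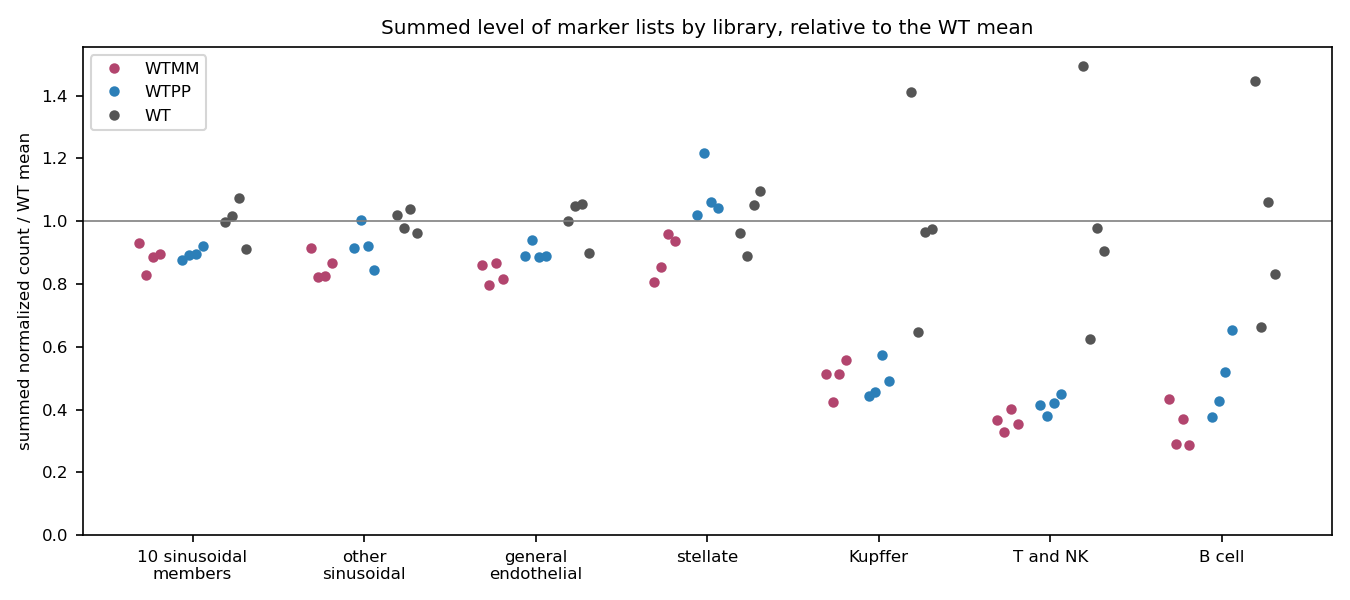
Summed normalized counts of 7 marker lists in each library divided by the mean of the 4 WT libraries (grey line at 1), with WTMM, WTPP and WT points side by side for each list. The members lie between 0.830 and 1.07, while the Kupffer, T and NK and B cell points of both descendant groups lie below all WT points of their list.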

How the data were processed

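Liver RNA-seq of 12 mice in 3 groups of 4 was used, grouped by the labels. The values deposited by the authors are log2(normalized count + 0.1), with 25069 genes and 12 columns. The submitters' processing notes name cutadapt, HISAT2, DESeq2 and GRCm38; their versions and roles, the gene counter and its use of strand are not stated there. Per the labels' protocols the libraries were directional. After 0.1 was taken off the antilog, 100% of values were whole multiples of 1 step per library to within 0.001 of a read, which gave whole reads. Ensembl IDs were looked up in GENCODE M21 for coordinates and exon lengths, and 25016 matched.

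Testing used limma 3.58.1 (R 4.3.3). Values entered as log2(normalized count + 1), the 3 group means were fitted together with a trend of variance over mean, and p-values were adjusted by Benjamini-Hochberg at 0.05 over 14473 genes with a mean of at least 10. This scale understates fold changes of low genes. The procedure was tested on simulated data. Nothing in the labels says whether mice shared litters, so p-values measure the spread between these samples, which may be technical in part. No 2 libraries of a group were near-identical, so each counted once.

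Alternatives were pseudocounts of 0.1 and 5, no filter and a mean of at least 50, quantile normalization, scaling to total reads, no trend, voom, 2-group fits, each library left out, a replicate block, and members without Stab1, Fcgr2b and Pecam1. Their use for the called genes of other lists was chosen after seeing the data. The members and the gene lists were chosen with earlier results of these data known. Named from the endothelial and stellate lists were genes past the threshold with the smallest p, at most 4 per list, or where none passed some of the 2 with the smallest p; from other cell type lists at most 2 with the highest mean; and the 8 genes most like the members. Promoter windows came from RefSeq (GRCm38.p6).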

Additional observations from a re-analysis of the deposited data

Results flagged for a closer look

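In groups of 4, a library was noted when its gap to the nearest other library, divided by the range of the group, passed the 95% critical value of Dixon's test. This was done for 36 groups of values, and chance alone gives such a value in about 1 in 20 groups. Lyve1 in WT 117 stood far below the other WT libraries, at 62.6 normalized counts against 150.4 to 167, with a ratio of 0.837. Oit3 in WTPP 2 stood below the other WTPP libraries, at 1028 normalized counts against 1112 to 1121, with a ratio of 0.902.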

How the results depend on the processing

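Over 21 to 23 other settings per comparison a member was called in 1 case, Pecam1 in WTMM against WT without WTMM 8, which made the number of members called 1. Against WT, the sign of a member turned in 3 cases: Lyve1 in WTMM without WT 117 (-0.0191 to 0.449 over the libraries left out), Oit3 in WTMM without WT 118 (-0.0779 to 0.0054) and Flt4 in WTPP without WT 117 (-0.193 to 0.0193). Medians of members against WT ran from -0.23 to -0.10 in WTMM and from -0.19 to -0.11 in WTPP. Between WTMM and WTPP, where most members lay near 0, signs turned with a library left out for Stab1 (-0.0699 to 0.0336, above 0 without WTPP 6 or 7), Stab2 (-0.0303 to 0.0765, below 0 without WTMM 6, WTMM 8 or WTPP 7), Fcgr2b (-0.0937 to 0.00427, above 0 without WTMM 7) and Flt4 (-0.0849 to 0.0291, above 0 without WTMM 7 or WTPP 7). The median of members there ran from -0.046 to 0.00816, above 0 without WTMM 7 or WTPP 7, and was 0.031 without Stab1, Fcgr2b and Pecam1; the ratio of summed levels ran from 0.972 to 1.01, above 1 without WTMM 7. With a library left out, genes called numbered 822 (without WTMM 7) to 1795 in WTMM against WT, 742 (without WT 116) to 1997 in WTPP against WT and 266 (without WTMM 9) to 824 in WTMM against WTPP; counts also moved by over 1.5 times to 838 to 913 without WT 116, WT 118, WTMM 6 or WTMM 9, to 809 to 965 without WT 118, WTPP 6 or WTPP 7, and to 343 to 397 without WTPP 3, WTMM 6, WTMM 7 or WTMM 8, in that order of comparisons. A fit of the 2 groups compared called 858 genes in WTPP against WT. WTMM and WTPP share the numbers 6 and 7. Deviations from the group means had r = -0.15 and -0.07 between same-numbered libraries, and -0.13 to 0.16 between those with unlike numbers. These values cannot show whether same-numbered mice were paired, which the labels do not state. The main fit treated all libraries as unpaired. A replicate block over those 4 libraries called 32 genes and 0 members, with a median of -0.0932, Lyve1 at -0.0915 and Gpr182 at -0.0949. No scaling changed how many members lay below 0. The cause of these changes was not tested. Lyve1, with the fewest reads, had the widest intervals.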
